A study of Arabidopsis thaliana with 6 samples.

Results

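The genes described here carry the cytokinin signal from the membrane to DNA in Arabidopsis thaliana. They are the receptors AHK2 (AT5G35750_at in the table), AHK3 (AT1G27320_at) and AHK4 (AT2G01830_at), the phosphotransfer proteins AHP1 (AT3G21510_at), AHP2 (AT3G29350_at), AHP3 (AT5G39340_at) and AHP5 (AT1G03430_at), and the type-B response regulators ARR1 (AT3G16857_at), ARR10 (AT4G31920_at) and ARR12 (AT2G25180_at). They were chosen by locus for their place in the pathway, with earlier results of these data known, and all 10 were found among the 21428 probe sets, which are named by locus. Transcript levels had been measured in leaves 1 and 2, dissected from seedlings of accession Columbia-0, on 6 Affymetrix ATH1 arrays. AN3-GR and wild type (WT) plants gave 3 arrays each, labelled as biological repeats. Both genotypes had grown in vitro for 8 days in long days (16 h light, 8 h dark) and then spent 8 h on medium with 5 µM dexamethasone. AN3-GR joins AN3, a transcriptional coactivator that promotes cell proliferation in young leaves, to the hormone-binding domain of the glucocorticoid receptor, which holds a fused protein inactive until a steroid is given. The promoter of the transgene, the number of lines and the number of plants behind each RNA sample are not given in the sources used here. Arrays of untreated plants were not analysed here, so a standing difference between the lines and the effect of activating the fusion cannot be told apart.

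Cytokinins are hormones that promote cell division and delay differentiation in shoots. The AHK receptors are histidine kinases that span the membrane. When they bind cytokinin they phosphorylate themselves and pass the phosphate to AHP proteins, which move between cytosol and nucleus and hand it to response regulators. Type-B regulators such as ARR1, ARR10 and ARR12 bind DNA through a Myb-like domain and switch on cytokinin target genes. Among those targets are the type-A regulators, which have no such DNA-binding domain and dampen the same relay. The activity of the relay lies in phosphate transfer, which transcript arrays do not measure.

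The deposited values were on a log2 scale after RMA, a procedure that corrects background, gives all arrays 1 intensity distribution and summarises the probes of a gene. A shift common to all genes is lost in this step and differences between weak signals are compressed, and the signals of different probe sets are not compared here as levels. Array medians lay between 6.31 and 6.32 in AN3-GR and between 6.22 and 6.32 in WT. AN3 itself separated the genotypes, with 10.56, 10.02 and 10.55 in AN3-GR and 7.39, 6.98 and 7.61 in WT (log2 change 3.05, SE 0.19; limma, adjusted p = 0.000303). Of the leaf genes, the light-harvesting gene LHCB3 averaged 11.84 ± 0.39 in AN3-GR and 11.92 ± 0.17 in WT, and the young-leaf gene FIL averaged 9.25 in AN3-GR and 9.16 in WT (log2, n = 3 each). The 2 measured root markers, PLT1 and PLT2, and 4 of 6 shoot meristem markers lay under 4.06, the lower quartile of the probe set means.

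None of the 10 genes passed the test between the genotypes. The comparison was limma's moderated test over all probe sets, with a Benjamini-Hochberg adjusted p under 0.05 as the threshold, and positive log2 changes are those with AN3-GR above WT. The count was 0 of 10, against a background of 0.789% of all probe sets called (169 of 21428). At an unadjusted p under 0.05 it was 1 of 10, AHP5, while 18% of all probe sets lay there. The log2 changes of the 10 genes ran from -0.33 to 0.20 with a median of -0.073, and the median of all probe sets was -0.019. Signs were negative in 7 genes and positive in 3, while 45.8% of all probe sets were positive. The median size of a change, without regard to sign, was 0.13 for the 10 genes, the same as for all probe sets. With RNA from whole leaves, fewer cells that express a gene and less RNA in each such cell cannot be told apart.

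**Figure D1:**
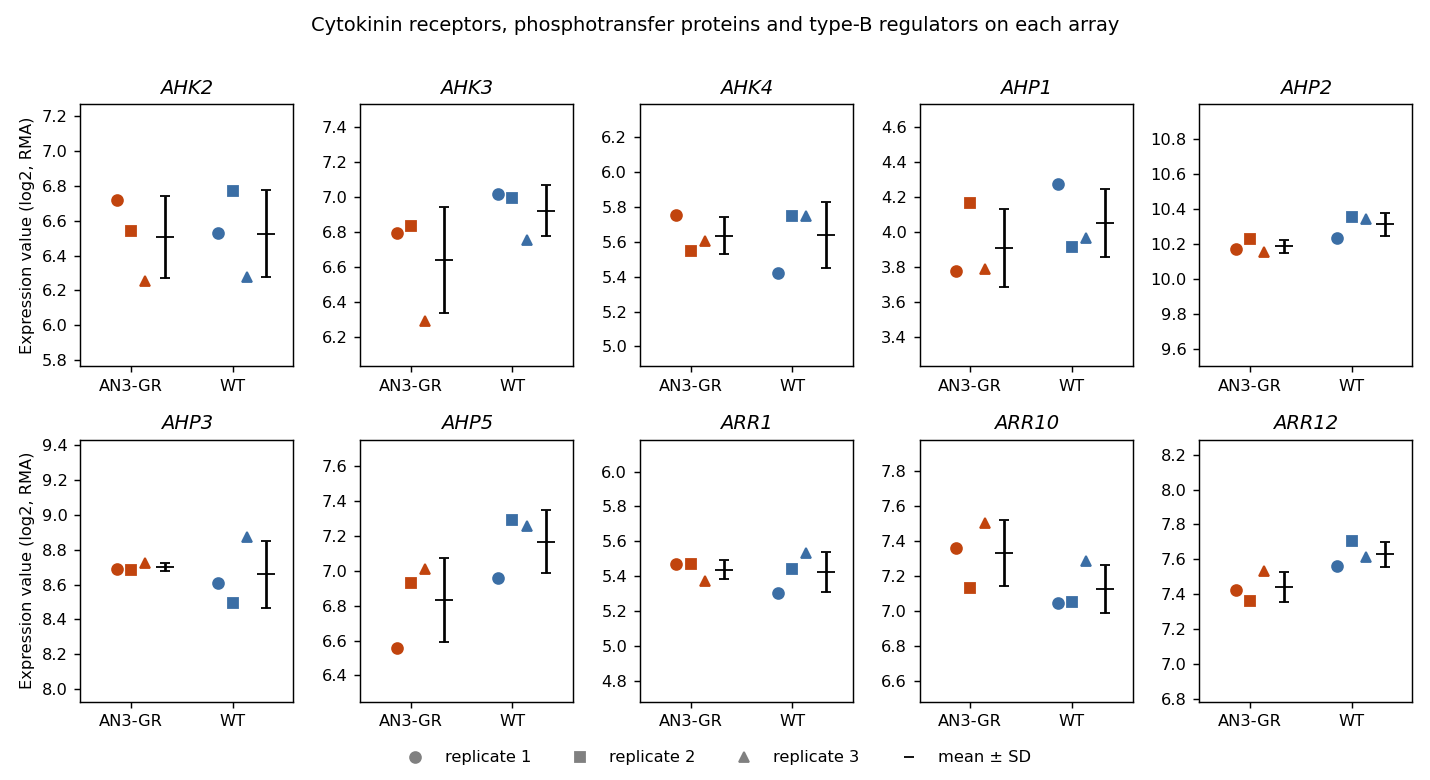
Expression values (log2, RMA) of the 10 genes on each array, with AN3-GR in orange on the left and WT in blue on the right of each panel. Marker shapes give the replicate number, black bars the mean ± SD of 3 arrays, and every panel spans 1.5 log2 units. AHP2 and ARR12 are the genes in which all AN3-GR arrays lie below all WT arrays.

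How large a difference the arrays could have missed is given by the 95% confidence intervals. For 8 of the 10 genes the interval lay inside a change of 1.5-fold in either direction, as it did for 83.1% of all probe sets. The exceptions were AHP5 and AHK3, whose intervals reached a level of 0.635 and 0.647 of that in WT. With the replicate number as a block, all 10 intervals lay inside 1.5-fold, and the share of all probe sets that did so with the block is not given here. The count of called genes was again 0 of 10, against a background of 6.63% (1420 probe sets). A gene that missed the threshold is not thereby shown to be equal in the genotypes.

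**Figure D2:**
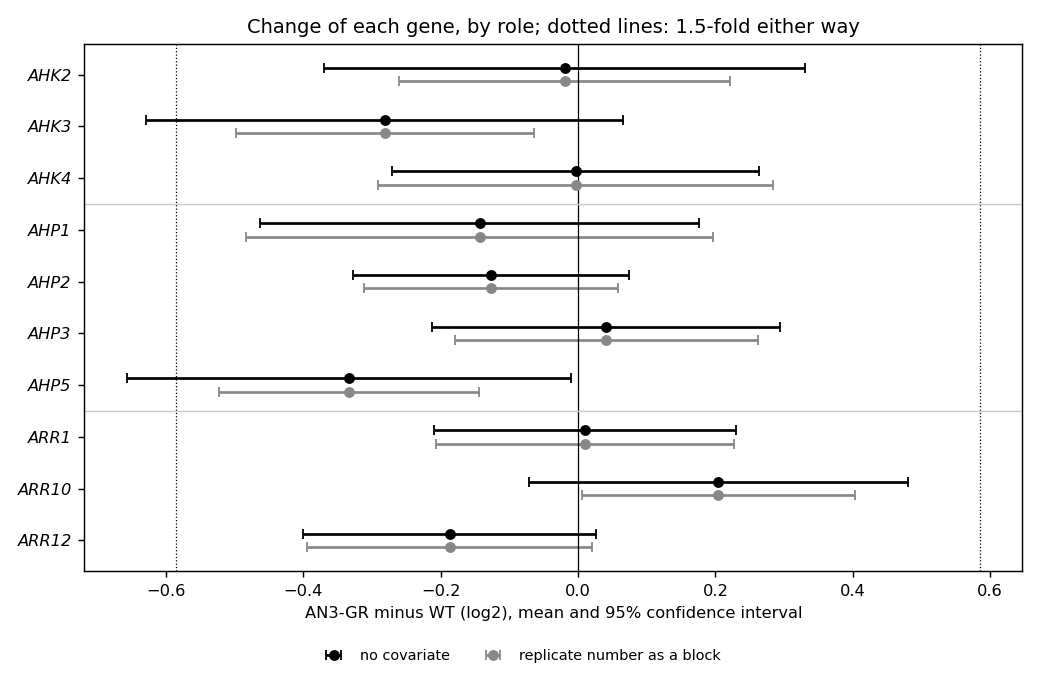
Log2 change (AN3-GR minus WT) of each gene with its 95% confidence interval from limma, receptors at the top, phosphotransfer proteins in the middle and type-B regulators at the bottom. Black is without covariates and grey with the replicate number as a block. Dotted lines mark 1.5-fold either way, which the black intervals of AHK3 and AHP5 cross on the lower side.

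Among the receptors, AHK3 had the most negative change. AHK3, known for its part in delaying leaf senescence, had values of 6.79, 6.84 and 6.29 in AN3-GR and of 7.02, 6.99 and 6.75 in WT. Replicate 3 was the lowest array in both genotypes, and the groups overlapped only through WT replicate 3, which lay below AN3-GR replicates 1 and 2. The log2 change was -0.28 (SE 0.15; limma, adjusted p = 0.370), and adjusted p = 0.115 with the replicate block. AN3-GR replicate 3 carried much of this size, since the change was -0.11 without that array.

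AHK2, a receptor that acts with AHK3 in shoot growth, had values of 6.72, 6.54 and 6.26 in AN3-GR and of 6.53, 6.77 and 6.28 in WT. The groups overlapped throughout, and replicate 3 was again the lowest array of each genotype. Over both genotypes AHK2 averaged 6.27 on the replicate 3 arrays, against 6.62 and 6.66 on those of replicates 1 and 2. The genotype difference was -0.019 (SE 0.16, 95% interval -0.37 to 0.33, adjusted p = 0.963 in limma), so the spread with the replicate number exceeded that between genotypes. Leaving out AN3-GR replicate 3 gave 0.11 and leaving out WT replicate 3 gave -0.14.

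AHK4, also called CRE1 or WOL, is a receptor best known from the vascular tissue of the root. It had values of 5.75, 5.54 and 5.61 in AN3-GR and of 5.42, 5.75 and 5.75 in WT. The groups overlapped, and the lowest of the 6 arrays was WT replicate 1. The means differed by -0.0032 (SE 0.12, 95% interval -0.27 to 0.26; limma, adjusted p = 0.991), which leaves room for a change of about 0.829 to 1.20 times the WT level. The vascular markers SUC2, ATHB8 and PXY had log2 changes of -0.060, -0.13 and -0.032, and IRX3 and the phloem regulator APL had 0.15 and 0.28, with 0 of 5 called in limma and 1, APL, at an unadjusted p under 0.05, where 18% of all probe sets lay. The mean of these markers on an array ran from 6.42 to 6.58 in AN3-GR and from 6.36 to 6.52 in WT.

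The phosphotransfer proteins held the most negative change of all 10 genes, that of AHP5. AHP5 had values of 6.56, 6.93 and 7.01 in AN3-GR and of 6.96, 7.29 and 7.25 in WT. Within each genotype replicate 1 was the lowest array, and WT replicate 1 fell between the AN3-GR arrays, so the groups overlapped. The log2 change was -0.33 (SE 0.14, 95% interval -0.66 to -0.010) with an adjusted p of 0.265 in limma. Set against the WT array of the same number, AN3-GR differed by -0.40, -0.36 and -0.24 in replicates 1, 2 and 3. The SE with the replicate block was 0.079, and the adjusted p of 0.0576 was the lowest that any of the 10 genes had under any setting tried. Without AN3-GR replicate 1 the change was -0.20.

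AHP2 and AHP3 belong with AHP5 to the phosphotransfer proteins that act positively and redundantly in cytokinin responses. AHP2 had values of 10.17, 10.23 and 10.15 in AN3-GR and of 10.24, 10.36 and 10.34 in WT. Every AN3-GR array lay below every WT array, though AN3-GR replicate 2 and WT replicate 1 nearly met. The log2 change was -0.13 (SE 0.089; limma, adjusted p = 0.487), a level of 0.916 times that in WT with an interval from 0.797 to 1.05.

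AHP3 had values of 8.69, 8.68 and 8.73 in AN3-GR and of 8.61, 8.50 and 8.87 in WT. The AN3-GR arrays lay within the range of the WT arrays, which was wider, with an SD of 0.023 in AN3-GR and 0.19 in WT. The log2 change was 0.041 (SE 0.11; limma, adjusted p = 0.875) and turned to -0.040 without WT replicate 2.

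AHP1 gave a weak signal. Its mean over the 6 arrays lay under 4.06, the lower quartile of the table, where RMA compresses differences. The values were 3.78, 4.17 and 3.79 in AN3-GR and 4.28, 3.91 and 3.97 in WT. The groups overlapped, with WT replicate 1 and AN3-GR replicate 2 as the highest arrays. The log2 change was -0.14 (SE 0.14; limma, adjusted p = 0.627), and the lower quartiles of WT replicates 1 and 2, at 4.21 and 4.13, were above the 3.99 to 4.05 of the AN3-GR arrays and the 3.99 of WT replicate 3. With quantile normalization, which gives all arrays 1 distribution, the AHP1 change was -0.050 (limma, adjusted p = 0.876). Whether the array quartiles bear on the AHP1 change was not tested.

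The type-B regulators had changes of both signs. ARR12 had values of 7.43, 7.36 and 7.53 in AN3-GR and of 7.56, 7.71 and 7.61 in WT. All AN3-GR arrays lay below all WT arrays. The log2 change was -0.19 (SE 0.095, 95% interval -0.40 to 0.027; limma, adjusted p = 0.337), and single arrays left out moved it between -0.23 and -0.15. ARR12 and AHP2 were the 2 of 10 genes whose groups did not overlap, both with AN3-GR below WT, and 9.4% of all probe sets had that order with 22.2% separated in either direction.

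ARR10 had values of 7.36, 7.13 and 7.50 in AN3-GR and of 7.05, 7.05 and 7.29 in WT. Replicate 3 was the highest array of each genotype, and AN3-GR replicate 2 lay below WT replicate 3, so the groups overlapped. The log2 change of 0.20 (SE 0.12; limma, adjusted p = 0.412) was the highest of the 10 genes, and the same-numbered differences were 0.31, 0.083 and 0.22. Without AN3-GR replicate 3 it was 0.12 and without AN3-GR replicate 2 it was 0.30.

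ARR1 had values of 5.47, 5.47 and 5.37 in AN3-GR and of 5.31, 5.44 and 5.53 in WT. The AN3-GR arrays lay within the WT range. The log2 change of 0.010 (SE 0.097, 95% interval -0.21 to 0.23; limma, adjusted p = 0.969) took either sign when single arrays were left out, from -0.050 without WT replicate 1 to 0.064 without WT replicate 3.

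**Figure D3:**
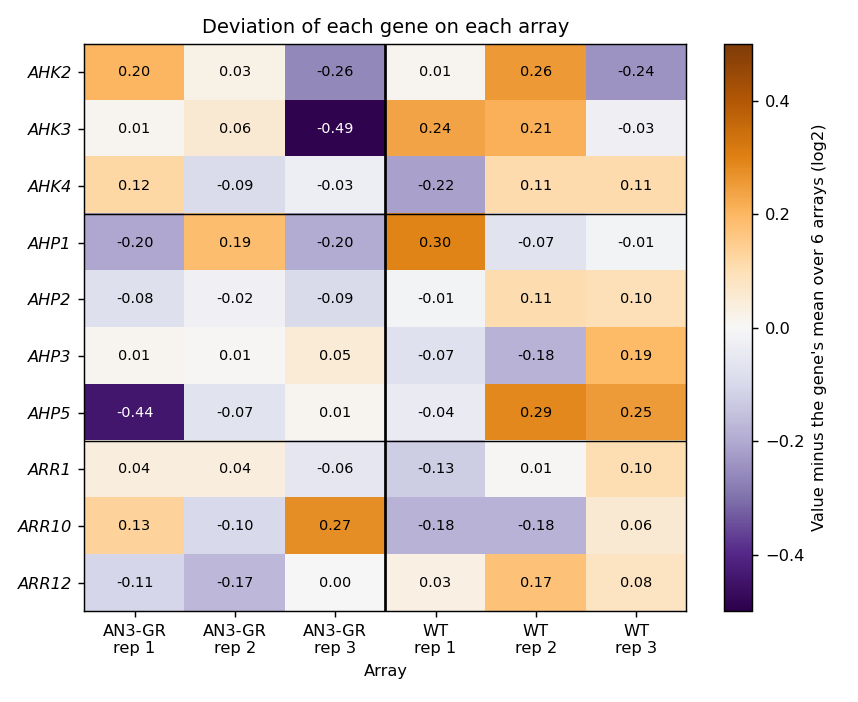
Deviation of each gene (rows) from its own mean over 6 arrays on each array (columns, AN3-GR left of the black line and WT right of it), in log2 units, with the value printed in each cell. AHK2 and AHK3 have their lowest value within each genotype on replicate 3, AHP5 on replicate 1, and ARR10 has its highest on replicate 3.

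AHK2, AHK3, AHP5 and ARR10 thus had 1 extreme array of the same number in both genotypes, while the order of the other arrays differed. AHP2 was also highest on replicate 2 in both genotypes. For AHP3 the order of all arrays was shared, with replicate 3 highest and replicate 2 lowest. How many of all probe sets share an extreme array in this way was not counted. With arrays of the same number set against each other, 5 of 10 genes kept 1 sign in all 3 pairs, as did 47.9% of all probe sets. ARR10 had a positive difference in each pair, as 24.2% of all probe sets did, and AHK3, AHP2, AHP5 and ARR12 a negative one, as 23.7% did. At an unadjusted p under 0.05 the block gave 3 of 10 genes, AHK3, AHP5 and ARR10, against 26% of all probe sets.

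Members of each family could be set against each other on the same array, which removes any shift that both share. The difference between 2 genes' log2 values was compared between genotypes for the 12 pairs within a family. In 2 of the 12 the genotypes did not overlap, against 23.5% of all possible pairs of probe sets. ARR10 minus ARR12 was -0.064, -0.23 and -0.031 in AN3-GR and -0.51, -0.66 and -0.33 in WT, a shift of 0.39 between the means. AHP3 minus AHP5 was 2.13, 1.75 and 1.72 in AN3-GR and 1.65, 1.21 and 1.62 in WT, a shift of 0.37. Both had a two-sided exact permutation p of 0.1, the smallest that 3 arrays against 3 allow, and 0.48 after Benjamini-Hochberg adjustment over the 12 pairs, so neither could pass.

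The genes closest in pattern to the members with the largest changes were sought by the root mean square difference over the 6 arrays, each gene first centred on its own mean. For AHP5 these were AT1G19380 at 0.048 and RALFL33 at 0.051 log2 units, against a median of 0.27 over all probe sets. For AHK3 they were NCS1 at 0.039 and NdhL at 0.048, where the median was likewise 0.27. For ARR10 they were FANCM and CDKB2;2, both at 0.025 with a median of 0.22. All 6 of these genes missed the threshold, with log2 changes between -0.35 and 0.20, and 6 arrays are few points on which to rank patterns. Picked as the nearest of all probe sets, these 6 genes lay below the medians by selection, so the medians give only the scale.

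**Figure D4:**
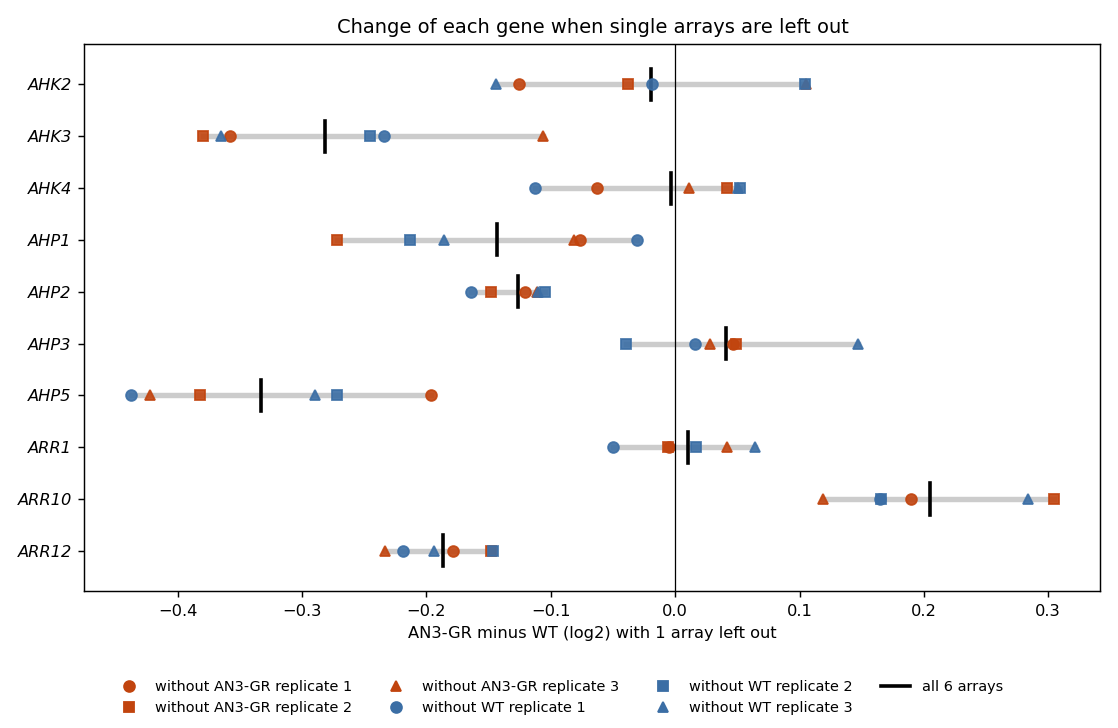
Log2 change (AN3-GR minus WT) of each gene with all 6 arrays (black bar) and with 1 array left out (orange for an AN3-GR array, blue for a WT array, shapes for the replicate number). AHK3, AHP1, AHP2, AHP5 and ARR12 stay below 0 and ARR10 stays above 0 in these fits, while AHK2, AHK4, AHP3 and ARR1 take both signs.

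The close relatives of these genes and the KISS ME DEADLY F-box proteins gave 0 calls in limma as well (background 0.789%). Among these relatives and F-box proteins, 3 genes, ARR14, ETR1 and KMD4, had an unadjusted p under 0.05 (background 18%). Of the other type-B regulators 6 of 9 were measured, with a median log2 change of -0.14 and 4 of them under 4.06, the lower quartile of the table. ARR14 was lowest, at 6.69, 6.94 and 6.89 in AN3-GR and 7.13, 7.18 and 6.95 in WT, without overlap (-0.25, SE 0.11; limma, adjusted p = 0.275). ARR2, a regulator with a strong likeness to ARR1, had the highest change of that list, 0.041 (SE 0.093). Of the other phosphotransfer proteins, AHP4 had 0.22 at a weak signal. AHP6, which lacks the phosphate-accepting histidine and inhibits the relay, had 0.025. Other histidine kinases, among them the ethylene receptors, had a median of 0.089 over 8 genes, with 0 called. They ran from the ethylene receptor ETR2 at 0.42 (SE 0.23) to CKI1 at -0.18 (SE 0.12), the latter at a weak signal. The 4 KISS ME DEADLY F-box proteins, which mark type-B regulators for breakdown, were all negative and not called, from KMD4 at -0.27 (SE 0.12; adjusted p = 0.263) to KMD2 at -0.018.

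Over all 57 measured genes of the other lists, 1 passed, as higher, against 0.56% of all probe sets. These lists include the relatives, the other histidine kinases and the F-box proteins described above. CRF2, a cytokinin response factor, was higher in AN3-GR, with a log2 change of 0.54 (SE 0.091, adjusted p = 0.0414 in limma). Its values were 8.71, 8.66 and 8.71 in AN3-GR and 8.18, 8.22 and 8.05 in WT. The call ended when AN3-GR replicate 1 (0.232), 2 (0.0812) or 3 (0.108), or WT replicate 1 (0.0809) or 2 (0.145), was left out, and after the arrays were centred on their medians (0.0550). It also ended with Benjamini-Yekutieli adjustment (limma, adjusted p = 0.436). Leaving out replicate number 1 (0.389), 2 (0.286) or 3 (0.0842) in both genotypes ended it too. The 5 measured response factors had a median of 0.41, and 4 of them had an unadjusted p under 0.05 (background 18%). CRF3 had the smallest change of the list, 0.28 (SE 0.26).

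The type-A regulators, whose transcription type-B regulators switch on, had 0 of 10 called in limma (background 0.789%), 5 at an unadjusted p under 0.05 (background 18%) and a median of -0.31, against -0.073 for the 10 genes upstream of them and -0.019 for all probe sets. With the replicate block 3 of 10 passed as lower, namely ARR5 at -0.79, ARR6 at -0.70 and ARR4 at -0.58 (limma adjusted p = 0.0239, 0.0330 and 0.0244, against 0.147, 0.0771 and 0.0523 without it). The background of calls as lower with the block was 3.03%. Without the block, ARR4 passed in limma with array weights (adjusted p = 0.0207) and with the intensity trend (0.0244). It also passed with the weakest 25% (0.0480) or 50% (0.0297) of probe sets left out, and without WT replicate 3 (0.0368). ARR4 missed the threshold with quantile normalization (0.0516), after median centring (0.0550) and without any other single array. It also missed with Benjamini-Yekutieli adjustment (limma, adjusted p = 0.552). Leaving out replicate number 1 (0.463), 2 (0.286) or 3 (0.0842) in both genotypes gave no ARR4 call either. ARR6 passed with array weights (0.0295). ARR17 had the smallest change in this list, -0.045, at a weak signal. Whether the type-A list differed from the receptors, phosphotransfer proteins and type-B regulators was not tested.

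Hormone supply was represented by 22 genes with 0 calls in limma, against 0.789% of all probe sets. IPT2, LOG1, CKX1 and PUP14 (4 of 22) had an unadjusted p under 0.05, as did 18% of all probe sets. Synthesis and activation genes had a median of -0.11 over 14, from IPT2 at 0.35 (SE 0.15) to LOG1, which releases active cytokinin, at -0.27 (SE 0.10), and 6 of them had weak signals. Cytokinin oxidases, which break the hormone down, had a median of 0.018 over 6, from CKX1 at 0.28 to CKX4 at -0.23. The CKX1 signal was weak. Of the transporters, ABCG14 had 0.14 (SE 0.14). PUP14, which takes cytokinin into cells and so limits what receptors perceive, had 9.93, 10.24 and 10.67 in AN3-GR and 10.62, 10.98 and 11.10 in WT. Those groups overlapped through AN3-GR replicate 3, and replicate 1 was the lowest and replicate 3 the highest array of each genotype. The log2 change of PUP14 was -0.62 (SE 0.19; limma, adjusted p = 0.147), and it passed as lower with the replicate block (adjusted p = 0.0239).

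**Figure D5:**
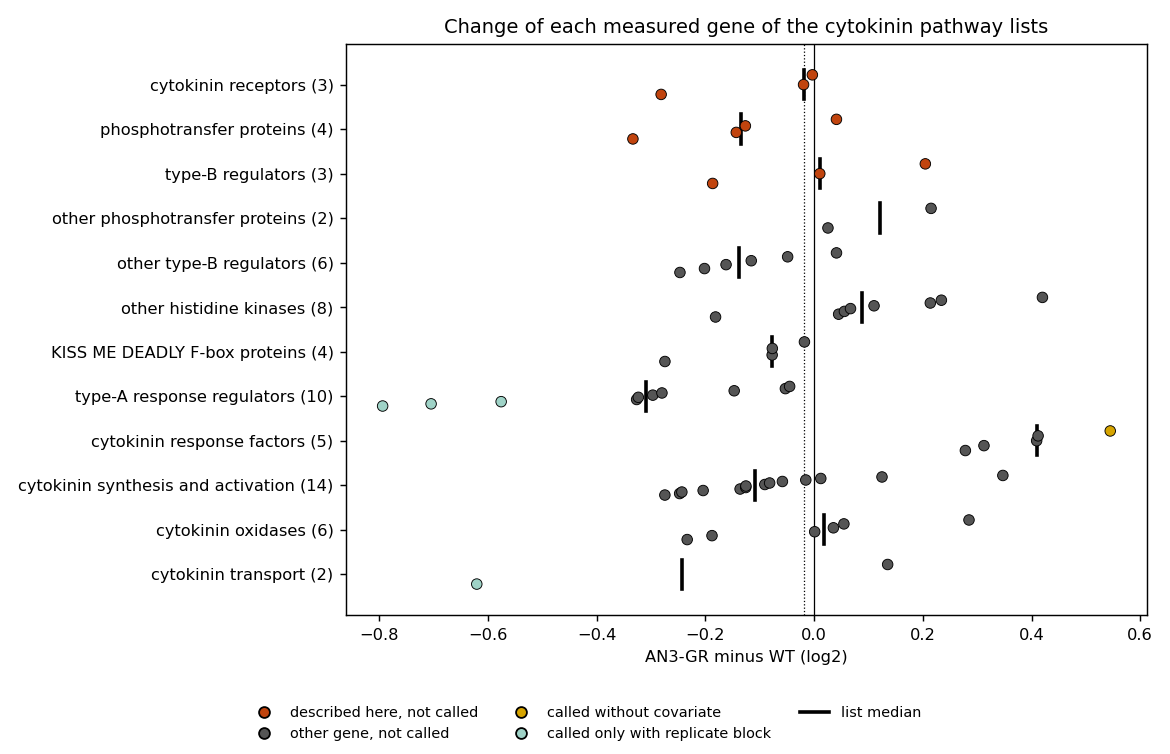
Log2 change (AN3-GR minus WT) of every measured gene of the cytokinin lists and of the other histidine kinases. There is 1 point per gene and 1 line per list, with the number measured in brackets. The bar is the list median, the solid line 0 and the dotted line the median of all probe sets. Orange points are the 10 genes described here and yellow is CRF2. Pale green marks ARR4, ARR5, ARR6 and PUP14, which passed with the replicate block and not in the main fit, which had no covariates.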

How the data were processed

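The deposited table gave log2 expression values per gene locus on 6 arrays. RMA and limma are the authors' tools per the submitters' processing notes, which give no versions, and the sources used here do not give the probe grouping. The values entered the fit unfiltered and unscaled, and 0 sample columns were unused. Of the loci, 21231 matched RefSeq's gene table (TAIR10.1) and 197 did not. None of the 10 genes shared identical values with another probe set. The test between genotypes was that of limma 3.58.1 under R 4.3.3 (lmFit, eBayes, 1 prior variance, no covariate, two-sided, Benjamini-Hochberg over all 21428 probe sets), checked on simulated data. Pairs within families used exact permutation tests (SciPy 1.17.1). Depth does not apply to arrays; their number, 3 per genotype, limits the precision. No label says that repeats came from separate cultures, so p-values measure the spread between these samples.

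Labels number repeats 1 to 3 in both genotypes. Deviations of same-numbered arrays from their group means correlated at 0.161, 0.416 and 0.494, each over 0.1, so the number was also fitted as a block. Other settings were another quantile normalization, median centring, leaving out the weakest 25% or 50% of probe sets, an intensity trend with robust prior, array weights, Benjamini-Yekutieli adjustment, and leaving out each array or each replicate number.

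The 10 genes and the lists were chosen with earlier results of these data known. All 10 are named. From the other pathway lists the text names called genes and each list's highest and lowest change, and ETR1 for its unadjusted p under 0.05 in limma. Marker genes serve as a description. Patterns are compared for the 3 genes with the largest change. ARR13, ARR20, ARR21, CRF4, CKX7, RBCS1A and WOX5 were not analysed here. No sequences were at hand.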

Additional observations from a re-analysis of the deposited data

How the results depend on the processing

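The count of called genes stayed 0 of 10 under all 17 other settings. Signs held under every setting for AHK3, AHP2, AHP5, ARR10 and ARR12. Small changes took the other sign, and none of those values was called: AHK4 became 0.0070 with quantile normalization and 0.026 with array weights, and ARR1 became -0.024 with arrays centred on their medians. With arrays or replicate numbers left out, log2 changes ran from -0.14 to 0.11 for AHK2, -0.17 to 0.097 for AHK4, -0.34 to 0.035 for AHP1, -0.040 to 0.15 for AHP3 and -0.065 to 0.096 for ARR1. AHP1 could not be fitted with the weakest 25% or 50% left out, nor AHK4 and ARR1 with the weakest 50% left out. Of all probe sets, 169 were called, and 564 with the weakest 50% left out, 558 with the intensity trend, 1132 with array weights, 1420 with the replicate block and 8 with Benjamini-Yekutieli adjustment; leaving out arrays gave 4 to 779, the highest without WT replicate 3. The share of calls that were higher was 71%, 58.1% with quantile normalization, 49.6% after centring and 54.2% with the replicate block. Of the 57 measured genes of the other lists 1 was called. The count was 0 after centring or with Benjamini-Yekutieli, and 2 with the weakest 25% or 50% left out or the trend. It was 4 with array weights, 5 with the replicate block, and 0 to 2 with arrays left out. Among the 10 genes and the other lists, the replicate block changed no calls but those of ARR4, ARR5, ARR6 and PUP14. For the genes nearest in pattern the block fit is not given here. The cause of these shifts was not tested.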
